A study of Mus musculus with 12 samples.

Results

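Neutrophils sorted from livers 24 hours after carbon tetrachloride (CCl4), hereinafter termed 24-hour neutrophils, were compared across genes with control splenic neutrophils. These are 7 of the 12 libraries of the series, 4 from livers at 24 hours and 3 from spleens. The libraries were assigned to groups by their labels, and the comparison was chosen with earlier results of these data known. The liver group came from C57BL/6N male mice aged 8 to 10 weeks that had received 1 intraperitoneal injection of CCl4 at 1 mL/kg in corn oil, and the spleen group from untreated mice of the same strain, sex and age. In both groups the cells were enriched with anti-Ly6G beads and sorted as Ly6G-high, Ly6C-intermediate, CD11b+ and CD45+, so Ly6G and CD11b were part of the gate. Livers were digested with enzymes and passed over a density gradient, whereas spleens were only dissociated mechanically. Organ, injury and cell isolation changed together and cannot be told apart, and no vehicle-injected group was used here. Nothing in the labels says that each library is a separate animal, so the p-values measure the spread between these libraries. The 5 libraries from livers at 72 hours entered the fit and 1 direct comparison.

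Neutrophils are short-lived granulocytes that leave the bone marrow with their granule proteins already made, and transcripts of those proteins are typical of precursors and young cells. Neutrophils that meet microbial products, cytokines or debris in a tissue transcribe chemokines, cytokines, immediate early genes and the inhibitors that limit those responses. CCl4 is turned by hepatocytes into radicals that kill the cells around the central veins, and neutrophils then enter the injured liver.

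Counts on genes ranged from 1744084 to 2666718 per spleen library and from 1781445 to 2017564 per library at 24 hours. At least 1 count was found for 13645 to 14195 genes in the spleen and for 11108 to 11640 at 24 hours. Values below are normalized CPM, counts scaled to a common library size after normalization across libraries, and are given in replicate order. Differences are on the log2 scale, 24 hours minus spleen, with adjusted p from edgeR's quasi-likelihood test, and means carry their SD (n = 3 spleens and 4 livers). Only 2.71% to 3.18% of the uniquely aligned reads were counted on a gene. The kit keeps the strand, but the strand option of the counter is not given in the sources used here. Genes whose exons overlap exons of a gene on the opposite strand held 82.4% to 83.0% of the counts in the spleen libraries and 87.0% to 89.3% at 24 hours. In 500 of 537 pairs of an antisense and a protein-coding gene that overlap, the antisense gene had more normalized CPM per exon base. Which strand gave the reads counted under a gene's name is therefore not known, for genes without an overlap as well, and every value below is of reads assigned to that name, which may not be the gene's own mRNA. For an overlapped gene, reads of the gene and of its partner cannot be told apart. Overlapped genes whose values are given are named with a partner, except for some cell type markers. Spleen replicate 3 differed from replicates 1 and 2 with a chi-square per degree of freedom of 37.5 and 41.3. Between spleen replicates 1 and 2 it was 2.47. Pairs of replicates ranged from 8.87 to 32.9 at 24 hours and from 6.72 to 38.1 at 72 hours. Spleen replicates 1 and 2 were thus closer to each other than any other pair of replicates. Whether they are independent samples was not tested. Results that turn on single spleen replicates are given with and without them.

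Of 12488 genes tested, 1218 (9.75%) were called, that is, had an edgeR adjusted p under 0.05 and a log2 difference of 0.5 or more in either direction. Of these, 668 were higher (5.35%) and 550 lower (4.40%) in 24-hour neutrophils, a share of 54.8% higher that was 63.2% under upper-quartile scaling. The median difference over all genes was -0.23. The groups did not overlap at 2847 genes (22.8%), and 1097 of the called genes were among these. Among genes with an opposite-strand exon overlap 12.8% of 4972 were called, 427 higher and 210 lower. Among genes without one 7.72% of 7485 were called, 238 higher and 340 lower. Fitted and normalized alone, these genes gave 552 calls, of which 53.6% were higher. The balance of higher and lower among them thus depended on which genes were normalized together. Genes annotated as antisense counted 165 higher and 27 lower of 985 tested, and protein-coding genes without an overlap 157 higher and 291 lower of 5996. Calls fell to 575 without spleen replicate 1, to 611 without spleen replicate 2 and to 633 when these libraries were summed as 1. In each of 12 fits that left out 1 library in turn, 296 of the higher and 152 of the lower genes were called.

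**Figure D1:**
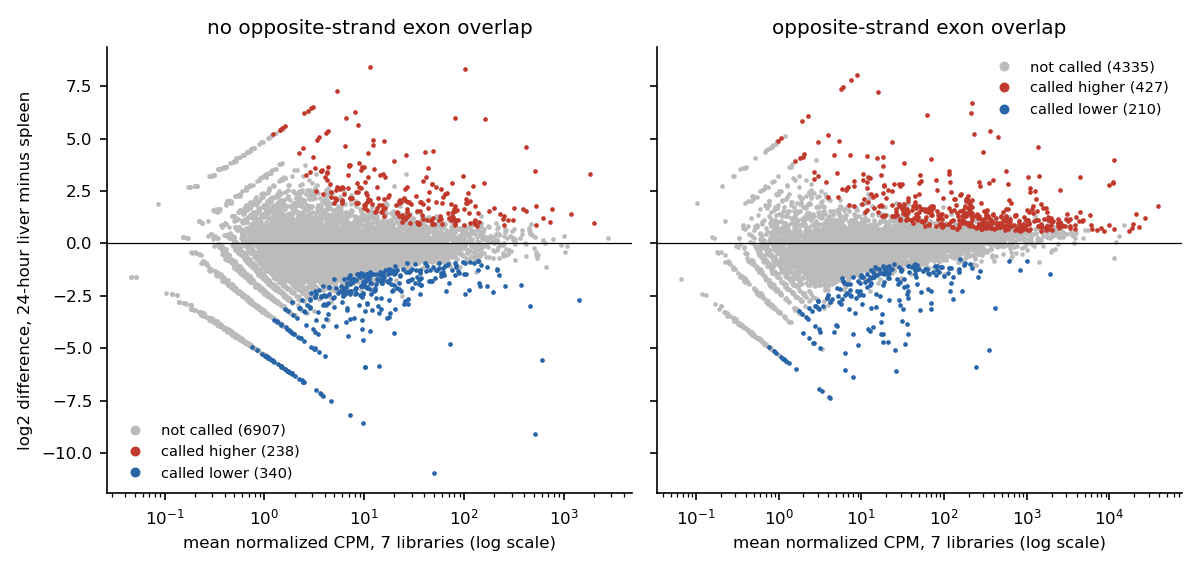
Log2 difference between 24-hour and control splenic neutrophils (vertical axis) against the mean normalized CPM of the 7 libraries (horizontal axis, log scale), 1 point per tested gene, separately for 7485 genes without and 4972 genes with an opposite-strand exon overlap. Red points were called higher and blue points lower, and red points outnumber blue ones among overlapped genes (427 against 210) while blue ones outnumber red ones among the others (340 against 238). When the genes without an overlap were fitted and normalized alone, 53.6% of 552 calls were higher.

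Of the higher genes without an exon overlap, Gm16894 had the smallest adjusted p. This antisense gene (chr1:40076228-40085851 on GRCm38, minus strand) lies inside the span of Il1r2, which encodes the decoy receptor of interleukin 1. Gm16894 had 29.2, 23.9 and 34.4 normalized CPM in the spleen and 926, 636, 617 and 669.7 at 24 hours. Each 24-hour library was thus far above the spleen, and Gm16894 rose by 4.6 (SE 0.34, adjusted p = 4.83e-08). Il1r2 itself averaged 30.9 ± 1.06 in the spleen and 74 ± 24.7 at 24 hours (log2 difference 1.26, adjusted p = 0.0551). A further 3 antisense genes and a pseudogene of the 12 leading higher genes also lie inside genes of the opposite strand. Gm12867 in Slc2a1, Gm28809 in Cd9, 1700058P15Rik in Vasp and Gm17907 in Cyfip1 rose by 3.22, 4.38, 1.62 and 2.67. Slc2a1 transports glucose, Cd9 is a tetraspanin, and Vasp and Cyfip1 regulate actin. These 12 genes were all called in each of the 12 fits that left out a library.

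The protein-coding genes among them were separated widely. Kntc1, a kinetochore protein of the spindle checkpoint, had 4.18, 5.07 and 4.18 normalized CPM in the spleen and 180.4, 166, 413 and 361 at 24 hours. No spleen library came near the lowest 24-hour value, and Kntc1 rose by 5.95 (SE 0.56, adjusted p = 7.6e-07). Basp1, a membrane protein that binds lipids and calmodulin, had 254, 269 and 371 normalized CPM in the spleen and 3119, 2327, 3296 and 3156 at 24 hours. The groups were well apart and Basp1 rose by 3.32 (SE 0.44, adjusted p = 5.69e-05). Smox, the spermine oxidase, whose reaction yields hydrogen peroxide, had 36.2, 29.7 and 29.6 normalized CPM in the spleen and 201, 168, 156 and 151 at 24 hours. P2ry2, the receptor through which extracellular ATP guides neutrophils, had 46.9, 43.1 and 68.2 normalized CPM in the spleen and 179, 199, 179.6 and 181 at 24 hours. At both genes the 24-hour values lay close together above all 3 spleen values, and Smox rose by 2.41 (SE 0.27, adjusted p = 6.88e-06) and P2ry2 rose by 1.8 (SE 0.25, adjusted p = 7.01e-05).

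The gene lists separated into a few that moved in 1 direction and many with few calls. Called members rose among chemokines (5 of 10 tested), immediate early transcription factors (13 of 28), signalling brakes (11 of 27) and cytokines (4 of 18), with none lower. Granule proteins were the reverse, with 9 of 23 lower and none higher. Over all genes, 5.35% were called higher and 4.40% lower. Of 18 NF-kB subunits and inhibitors 9 were higher, but only 3 without spleen replicate 1 or 2 and 5 without 24-hour replicate 2 or 4. Of the 112 called members of all lists, 53 were called in each of the 12 fits and 67 with spleen replicates 1 and 2 summed. The genes given library by library below are, unless said otherwise, among those 53. Leaving out single libraries did not move the counts of immediate early genes, brakes or cytokines by over 1.5 times. It did so for most lists with 3 or fewer calls in a direction, and the libraries are named beside the genes that lost their calls.

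**Figure D2:**
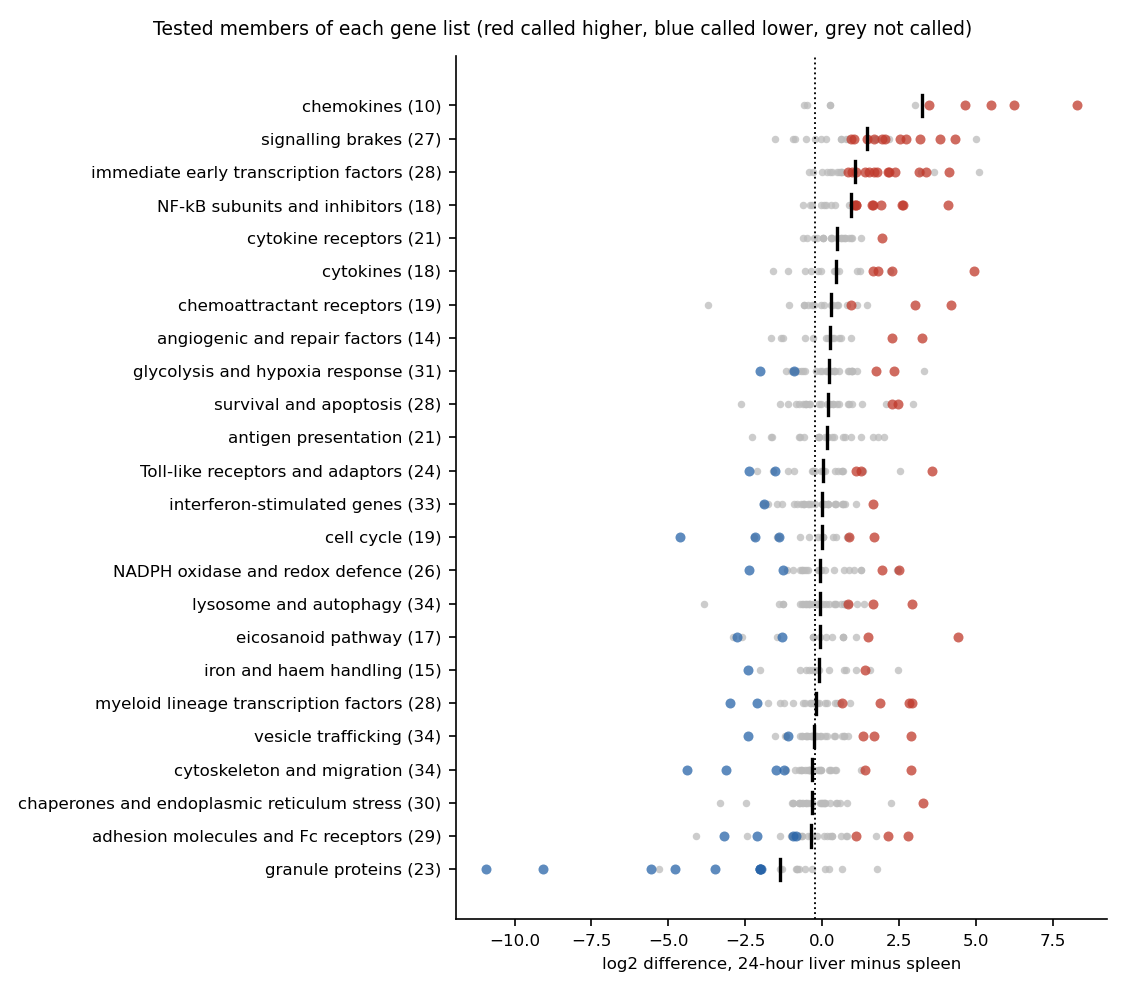
Log2 difference between 24-hour and control splenic neutrophils (horizontal axis) for the tested members of each list (1 row per list, number tested in parentheses, 1 point per gene), with the list median as a black bar and the median of all tested genes (-0.23) as a dotted line. The chemokine median lies farthest to the right (3.24) and the granule protein median farthest to the left (-1.37). Chemokines near 0 in the spleen could pass the filter on low counts only with liver libraries, which favours higher values.

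Chemokines rose in 24-hour neutrophils. Of 20 listed, 10 passed the filter on low counts and 5 of these were higher, with a median difference of 3.24, or 3.07 with the genes near 0 in the spleen set to their bound or count ratio. Cxcl1, Cxcl2, Cxcl3, Cxcl10 and Ccl4, near 0 in the spleen, could pass that filter only with the help of liver libraries. The filter thus favours higher members in this count and median. Cxcl2, a ligand of Cxcr2 that draws further neutrophils, had 0.464, 0.725 and 0.322 normalized CPM in the spleen and 157, 232, 117 and 199 at 24 hours. The spleen values rested on 4 counts in all, so the separation is complete while the size of the rise, 8.3 (SE 0.80, adjusted p = 9.19e-07), is poorly fixed. Ccl3, a chemokine that attracts monocytes and lymphocytes, had 44.5, 48.2 and 134 normalized CPM in the spleen and 682, 592, 1023 and 1051 at 24 hours. It was counted well in both groups and rose by 3.46 (SE 0.58, adjusted p = 0.000514). The related Ccl4 had 1 count in the spleen and 85 at 24 hours, a ratio of 113 with a counting interval of 19.7 to 4514. Cxcl1, which shares the receptor of Cxcl2, had 3 and 64 counts, a ratio of 28.4 with a counting interval of 9.28 to 141. Cxcl3 had no count in the spleen and 16 at 24 hours, and was at least 7.09-fold higher (floor of 3 counts over the group). The calls of Cxcl1 and Cxcl3 were lost without spleen replicate 2 (adjusted p = 0.0591 and 0.053), which left 3 called. Of the rest, Ccl6 averaged 113 ± 74.8 in the spleen and 80.6 ± 16.7 at 24 hours (log2 difference -0.49, adjusted p = 0.398) and was not called. Cxcl10, on 2 and 15 counts, was not called either (adjusted p = 0.137), while Art3, which overlaps it by 133 exon bases, rose by 2.91 (SE 0.55, adjusted p = 0.00165).

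The promoters of the 3 Cxcr2 ligands called higher are shown because they share a sequence, beside those of Tnfaip3 and Tnip1, brakes on NF-kB described below. Windows of RefSeq genes (GRCm38.p6, 250 bases before to 50 after each start) were searched on both strands for 2 forms of the kappa B motif bound by NF-kB, GGANTTTCC and GGGNNTTCC, which can overlap each other, and for the AP-1 motif TGANTCA. Each stretch reads along the gene's strand, and capitals mark the kappa B matches.
Cxcl1 (chr5:90891155-90891203, plus strand): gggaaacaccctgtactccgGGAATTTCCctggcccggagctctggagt
Cxcl2 (chr5:90903783-90903831, plus strand): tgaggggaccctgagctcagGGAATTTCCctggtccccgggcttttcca
Cxcl3 (chr5:90786009-90786057, plus strand): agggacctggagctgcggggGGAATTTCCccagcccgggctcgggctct
Tnfaip3 (chr10:19015411-19015454, minus strand): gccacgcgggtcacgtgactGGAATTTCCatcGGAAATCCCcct
Tnip1 (chr11:54962968-54963017, minus strand): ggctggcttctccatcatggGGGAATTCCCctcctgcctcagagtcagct
Cxcl1, Cxcl2 and Cxcl3 carry the same 9 capital bases, which begin 70, 96 and 72 bases before their starts. Tnfaip3 carries 2 matches, the first 24 bases before its start, and Tnip1 carries 2 that overlap each other, from 57 bases before its start. Of the 20 called chemokines, cytokines and signalling brakes 17 had a window, 21 windows in all, of which 7 held a kappa B match and 3 an AP-1 match. Over all 32851 windows the shares were 7.0% for kappa B and 7.81% for AP-1. A match describes the letters in these windows and is not a site at which binding was measured.

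Of 19 receptors for attractants 3 rose and none fell. Ccrl2, an atypical receptor that binds chemerin, had 1.86, 3.62 and 1.61 normalized CPM in the spleen and 20.8, 17.4, 66.5 and 73.7 at 24 hours. The groups were apart, with 24-hour replicates 3 and 4 highest, and Ccrl2 rose by 4.19 (SE 0.85, adjusted p = 0.00283). Cxcr5, known as the receptor that takes lymphocytes to follicles, overlaps Bcl9l by 110 exon bases and had 86.3, 97.5 and 48.2 normalized CPM in the spleen and 795, 788, 429 and 493 at 24 hours. It rose by 3.02 (SE 0.36, adjusted p = 1.8e-05), again with no overlap of the groups. C5ar1, the receptor of complement C5a, rose by 0.93 (SE 0.29, adjusted p = 0.0443), a call that was lost without spleen replicates 1, 2 or 3 or 24-hour replicates 1, 2 or 4 or 72-hour replicates 1 or 2 (highest adjusted p 0.148). Cxcr2, the main chemokine receptor of neutrophils, had 367, 331 and 284 normalized CPM in the spleen and 491, 391.7, 159 and 231 at 24 hours. These values overlapped and Cxcr2 was not called (log2 difference -0.04, adjusted p = 0.954).

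Cytokine genes rose in 4 of 18 tested. Il12a, the p35 subunit of interleukin 12, had 0.464, 1.45 and 0 normalized CPM in the spleen and 22.1, 22.2, 12 and 27 at 24 hours. It rested on 5 counts in the spleen and 126 at 24 hours and rose by 4.92 (SE 0.76, adjusted p = 0.000276). Osm, oncostatin M, an interleukin 6 family cytokine that acts on hepatocytes and stromal cells, had 10.7, 12.7 and 7.72 normalized CPM in the spleen and 35.3, 69.6, 36.8 and 58.4 at 24 hours. Il1rn, the antagonist of the interleukin 1 receptor, had 34.3, 35.5 and 36 normalized CPM in the spleen and 95.2, 113, 117 and 121 at 24 hours. All 4 of the 24-hour libraries exceeded the spleen at both genes, and Osm rose by 2.27 (SE 0.35, adjusted p = 0.000236) and Il1rn rose by 1.66 (SE 0.35, adjusted p = 0.00372). Tnf had 8.81, 6.52 and 2.25 normalized CPM in the spleen and 17.7, 36.6, 4.24 and 22.6 at 24 hours. Here 24-hour replicate 3 lay below 2 of the spleen libraries, and the rise of 1.82 (SE 0.56, adjusted p = 0.0411) was lost without spleen replicates 1, 2 or 3 or 24-hour replicates 1, 2 or 4 or 72-hour replicate 1 (highest adjusted p 0.147).

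Genes of the interleukin 1 family are set beside the genes opposite to them. Il1a averaged 13.5 ± 2.92 in the spleen and 29.9 ± 15.4 at 24 hours (log2 difference 1.15, adjusted p = 0.106), while Gm14023, which shares 222 exon bases with it, averaged 1.46 ± 0.642 in the spleen and 108 ± 88 at 24 hours and rose by 6.12 (SE 0.93, adjusted p = 0.00021). Il1b, overlapped by Il1bos, averaged 154 ± 21.6 in the spleen and 207 ± 60.8 at 24 hours and was not called (log2 difference 0.43, adjusted p = 0.425). Il1rap, the accessory chain of the interleukin 1 receptor, averaged 28.8 ± 1.86 in the spleen and 47.7 ± 22.7 at 24 hours (log2 difference 0.73, adjusted p = 0.233), while Gm20319, opposite to it over 552 exon bases, averaged 675 ± 87.3 in the spleen and 3925 ± 1716 at 24 hours and rose by 2.54 (SE 0.34, adjusted p = 6.56e-05). Whether the difference between partners was itself larger than the spread was not tested. Of 21 cytokine receptors Il10ra, a chain of the interleukin 10 receptor, was the 1 called, with a rise of 1.94 (SE 0.56, adjusted p = 0.0308) that was lost without spleen replicates 1, 2 or 3 or 24-hour replicates 1 or 3 (highest adjusted p 0.103).

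**Figure D3:**
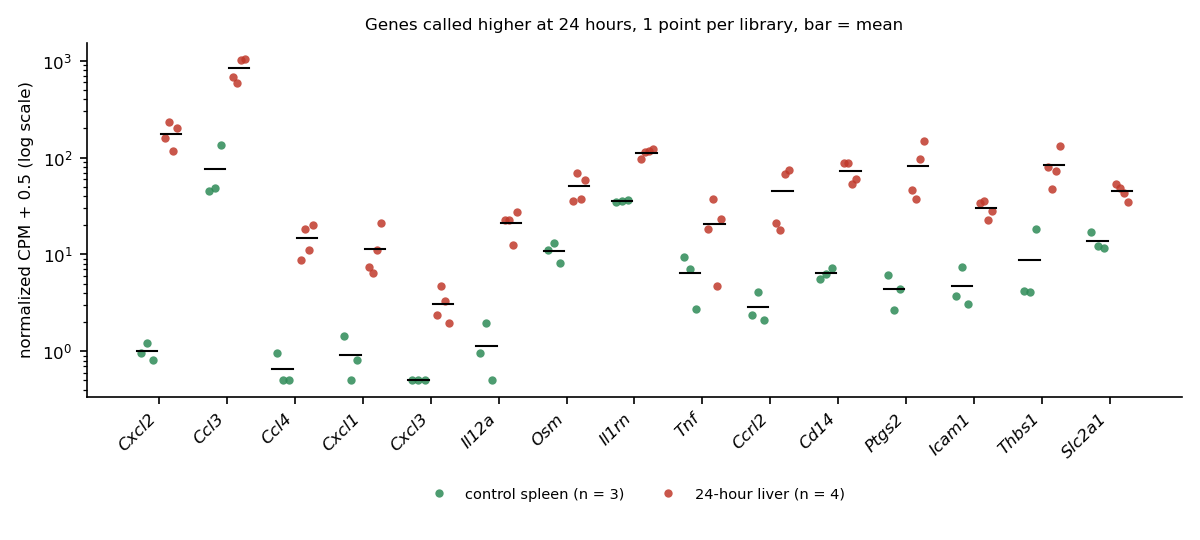
Normalized CPM plus 0.5 (vertical axis, log scale) of 15 genes called higher in 24-hour neutrophils, 1 point per library (green, 3 control spleens, red, 4 livers at 24 hours) with the group mean as a bar. The groups are apart at 14 of the genes and overlap at Tnf, where 1 red point lies below 2 green ones.

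Immediate early transcription factors, which need no new protein to be made after a stimulus, rose in 13 of 28 tested members (median difference 1.08). Fos, an AP-1 subunit, had 65.9, 50.4 and 147 normalized CPM in the spleen and 213, 303, 279 and 345 at 24 hours. Spleen replicate 3 was the highest spleen library but stayed below 24 hours, and Fos rose by 1.7 (SE 0.32, adjusted p = 0.0015). Junb, overlapped by Prdx2 over 173 exon bases, had 196, 213 and 195 normalized CPM in the spleen and 469, 512, 537 and 603 at 24 hours. Fosl2 had 207, 173 and 277 normalized CPM in the spleen and 643, 834, 813 and 713 at 24 hours. Both AP-1 genes kept the groups apart, and Junb rose by 1.4 (SE 0.24, adjusted p = 0.000771) and Fosl2 rose by 1.78 (SE 0.25, adjusted p = 0.000107). Jun and Junos, which overlap by 232 exon bases, rose by 2.17 (SE 0.42, adjusted p = 0.00182) and 2.48 (SE 0.26, adjusted p = 3.34e-06).

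Members of other families were also among the 13. Egr1, a zinc finger factor induced by growth factors, had 17.2, 15.9 and 23.2 normalized CPM in the spleen and 65.6, 75.6, 112 and 137 at 24 hours. The orphan nuclear receptor gene Nr4a1 had 5.57, 6.16 and 10.3 normalized CPM in the spleen and 25.2, 27.6, 80.6 and 136 at 24 hours. Within the 24-hour group both were highest in replicates 3 and 4, and Egr1 rose by 2.37 (SE 0.38, adjusted p = 0.0004) and Nr4a1 rose by 3.16 (SE 0.68, adjusted p = 0.00464). Btg2, an inhibitor of proliferation, and Ier2 rose by 1.53 (SE 0.31, adjusted p = 0.00281) and 1.11 (SE 0.26, adjusted p = 0.00837). The other 5 called members were Fosb (3.36), Ier3 (2.14), Ier5 (0.86), Klf2 (0.98) and Egr2, which had 2 counts in the spleen and 32 at 24 hours (ratio 21.3, counting interval 5.43 to 183). Each of these 5 lost its call without at least 1 of spleen replicates 1, 2 or 3 or 24-hour replicates 1, 2, 3 or 4 (highest adjusted p 0.0554 to 0.159). Jund, overlapped by Gm11175, and Klf6 were counted well and not called (log2 difference 0.15, adjusted p = 0.735 and log2 difference 0.62, adjusted p = 0.0934).

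Signalling brakes, inhibitors that the same stimuli induce, rose in 11 of 27 tested members (median difference 1.45). Tnfaip3, the A20 protein that stops NF-kB signalling, had 2.78, 1.09 and 4.5 normalized CPM in the spleen and 35.9, 27.6, 25.5 and 14.6 at 24 hours. Tnip1, which binds A20, had 12.1, 10.9 and 5.47 normalized CPM in the spleen and 49.2, 40.2, 27.6 and 37.2 at 24 hours. The groups were apart at both genes, and Tnfaip3 rose by 3.17 (SE 0.69, adjusted p = 0.00464) and Tnip1 rose by 2.04 (SE 0.51, adjusted p = 0.0138). Dusp1 and Dusp2 encode phosphatases that switch off MAP kinases. Dusp1, overlapped by Ergic1 over 11 exon bases, had 56.1, 50.0 and 121 normalized CPM in the spleen and 239, 251, 371 and 314 at 24 hours. Dusp2 had 0, 1.09 and 1.29 normalized CPM in the spleen and 7.57, 7.2, 33.9 and 25.5 at 24 hours. Neither gene's groups overlapped, and Dusp1 rose by 1.95 (SE 0.31, adjusted p = 0.000376) and Dusp2 by 4.33 (SE 0.97, adjusted p = 0.00606). Zfp36, which directs the decay of cytokine messages and is overlapped by Gm44710 over 125 exon bases, had 121, 147 and 219 normalized CPM in the spleen and 327, 539, 458 and 448 at 24 hours. It rose by 1.45 (SE 0.24, adjusted p = 0.000489) with the groups apart.

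Its relative Zfp36l1, overlapped by Gm26669, rose by 2.54 (SE 0.32, adjusted p = 2.88e-05), and Socs3, an inhibitor of cytokine receptor signalling, rose by 1.02 (SE 0.26, adjusted p = 0.0133). Plk3, a stress-induced kinase overlapped by Tctex1d4, rose by 3.84 (SE 0.57, adjusted p = 0.000156). The remaining 3 called brakes, Dusp5 (2.73, overlapped by AC137853.2), Dusp16 (1.68) and the pseudokinase gene Trib1 (0.94), lost their calls without at least 1 of spleen replicates 1, 2 or 3 or 24-hour replicates 2, 3 or 4 or 72-hour replicates 1 or 2 (highest adjusted p 0.0663 to 0.119). Zfp36l2, overlapped by AC132455.1 over 105 exon bases and the most counted of the members not called, averaged 123 ± 30.8 in the spleen and 189 ± 38.3 at 24 hours (log2 difference 0.62, adjusted p = 0.105), and Rgs2, which damps G protein signals, averaged 78.7 ± 0.912 in the spleen and 55.1 ± 11.6 at 24 hours (log2 difference -0.51, adjusted p = 0.175).

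Receptors of microbial products and their adaptors changed both ways, with 3 higher and 2 lower of 24, or 1 and 0 without spleen replicate 1. Cd14, the lipopolysaccharide co-receptor, had 5.1, 5.8 and 6.75 normalized CPM in the spleen and 88.3, 86.4, 52.3 and 59.8 at 24 hours. The lowest 24-hour library was several times the highest spleen library, and Cd14 rose by 3.59 (SE 0.59, adjusted p = 0.000458). Tlr2 and Tlr13 were also higher (1.27 and 1.1) and Tlr8 and Traf6 lower (-2.37 and -1.52). Each of these 4 lost its call without at least 1 of spleen replicates 1, 2 or 3 or 24-hour replicates 1, 2, 3 or 4 or 72-hour replicates 1, 2 or 5 (highest adjusted p 0.0575 to 0.138). Nod2, Irak4 (overlapped by Twf1) and Myd88 (overlapped by Acaa1a) were not called, with differences of 0.41, 0.09 and 0.02.

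Of the enzymes of lipid mediators, 2 of prostanoid synthesis rose and 2 of leukotriene synthesis fell. Ptgs2, cyclooxygenase 2, which makes the precursor of prostaglandins, had 5.57, 2.17 and 3.86 normalized CPM in the spleen and 46, 37.2, 96.2 and 149 at 24 hours. It was highest in 24-hour replicates 3 and 4 and rose by 4.41 (SE 0.61, adjusted p = 8e-05). Alox5, the 5-lipoxygenase that begins leukotriene synthesis, had 76.1, 68.5 and 44.4 normalized CPM in the spleen and 28.4, 32.4, 23.3 and 17.5 at 24 hours. Lta4h, which completes leukotriene B4, had 69.6, 69.6 and 12.2 normalized CPM in the spleen and 11.4, 6.6, 9.9 and 1.46 at 24 hours. Both lay below the spleen in every 24-hour library, and Alox5 fell by 1.3 (SE 0.30, adjusted p = 0.00773) and Lta4h fell by 2.76 (SE 0.62, adjusted p = 0.00602). The Alox5 call was lost without spleen replicate 1 (highest adjusted p 0.0562). Tbxas1, the thromboxane synthase, overlapped by Gm42962 over 144 exon bases, rose by 1.49 (SE 0.40, adjusted p = 0.0208), lost without spleen replicates 1 or 2 or 24-hour replicates 3 or 4 (highest adjusted p 0.103). These 4 were the calls among 17 genes, and with spleen replicate 3 left out 4 were higher and 2 lower. Without spleen replicate 1, 1 was higher and 1 lower, and without replicate 2, 1 was higher and 2 lower. Alox5ap, which presents the substrate to Alox5 and is overlapped by Gm19719 over 189 exon bases, averaged 84.5 ± 17.4 in the spleen and 105 ± 54.9 at 24 hours (log2 difference 0.32, adjusted p = 0.601). Gm19719 rose by 0.93 (SE 0.26, adjusted p = 0.0232), lost without spleen replicates 1 or 3 or 24-hour replicates 1 or 2 (highest adjusted p 0.0831).

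In glucose uptake the 2 main transporters of neutrophils moved apart. Slc2a1, the basal transporter, overlapped by Gm12868 over 105 exon bases, had 16.7, 11.6 and 11.3 normalized CPM in the spleen and 52.3, 48.6, 42.4 and 34.3 at 24 hours. Slc2a3, the high-affinity transporter, had 117, 105 and 108 normalized CPM in the spleen and 62.4, 68.4, 43.8 and 56.9 at 24 hours. The groups did not overlap at either, and Slc2a1 rose by 1.76 (SE 0.32, adjusted p = 0.00102) while Slc2a3 fell by 0.93 (SE 0.26, adjusted p = 0.0238). The fall of Slc2a3 was lost without spleen replicates 1 or 2 or 24-hour replicates 3 or 4 (highest adjusted p 0.0925). Of 31 genes of glycolysis and the hypoxia response, the other calls were Egln3, an oxygen-sensing hydroxylase (2.35), and Bnip3l, a mitophagy receptor (-2.03), lost without at least 1 of spleen replicates 1, 2 or 3 or 24-hour replicates 1 or 2 or 72-hour replicate 1 (highest adjusted p 0.137 to 0.159). The enzyme genes Pkm, Aldoa (overlapped by Fam57b), Gapdh (by Iffo1) and Gpi1 (by Gm26762) were not called (0.01, 0.43, -0.79 and -0.90).

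In the oxidative burst and its defences, calls were again in both directions. Cybb, the catalytic subunit of the phagocyte NADPH oxidase, had 236, 265 and 75.9 normalized CPM in the spleen and 49.8, 46.2, 18.4 and 31.4 at 24 hours. Spleen replicate 3 was the lowest of its group and still above 24 hours, and Cybb fell by 2.39 (SE 0.39, adjusted p = 0.000453). The cytosolic subunit gene Ncf1, overlapped by Gtf2ird2, was not called (log2 difference -0.45, adjusted p = 0.372). Slc7a11, the cystine importer that feeds glutathione synthesis, had 8.35, 8.34 and 14.1 normalized CPM in the spleen and 51.1, 34.2, 36.8 and 40.1 at 24 hours. It rose by 1.96 (SE 0.37, adjusted p = 0.00173). Txn1, thioredoxin (-1.28), and Srxn1, sulfiredoxin (2.5), were the other calls of 26, lost without at least 1 of spleen replicates 1, 2 or 3 or 24-hour replicates 2, 3 or 4 or 72-hour replicates 1, 2, 3, 4 or 5 (highest adjusted p 0.114 to 0.168).

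Among 15 genes of iron and haem, 1 was higher and 1 lower. Fth1, the ferritin heavy chain that stores iron, had 133, 139 and 86.8 normalized CPM in the spleen and 303, 431, 292 and 220.3 at 24 hours. Every 24-hour library lay above the spleen, and Fth1 rose by 1.38 (SE 0.31, adjusted p = 0.0067). Ncoa4, which delivers ferritin for breakdown, had 21.3, 24.6 and 19 normalized CPM in the spleen and 0, 5.4, 2.12 and 8.75 at 24 hours. It moved the other way, by -2.41 (adjusted p = 0.0174), and this was lost without spleen replicates 1 or 2 or 24-hour replicate 3 (highest adjusted p 0.0658). Ftl1, the light chain, averaged 97.7 ± 24.6 in the spleen and 212 ± 55.5 at 24 hours (log2 difference 1.12, adjusted p = 0.0782), while Gm10252, opposite to it over 355 exon bases, averaged 16281 ± 3687 in the spleen and 55630.3 ± 16510.4 at 24 hours and rose by 1.77 (SE 0.34, adjusted p = 0.00176).

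Adhesion molecules moved both ways, 3 higher and 4 lower of 29. Icam1, a ligand of leukocyte integrins, overlapped by Gm47079 over 511 exon bases, had 3.25, 6.89 and 2.57 normalized CPM in the spleen and 33.4, 34.8, 21.9 and 27.7 at 24 hours. Itgb1, the beta 1 integrin chain, had 11.6, 9.42 and 4.18 normalized CPM in the spleen and 32.8, 37.8, 29.7 and 48.1 at 24 hours. Both stood above every spleen library, and Icam1 rose by 2.78 (SE 0.57, adjusted p = 0.00296) and Itgb1 rose by 2.16 (SE 0.42, adjusted p = 0.00211). Clec12a, an inhibitory lectin receptor, had 35.7, 25.7 and 12.2 normalized CPM in the spleen and 1.89, 3.6, 1.41 and 3.65 at 24 hours. Ceacam1, an inhibitory adhesion molecule, had 53.8, 44.9 and 15.1 normalized CPM in the spleen and 12.6, 7.2, 4.24 and 10.9 at 24 hours. These lay below the spleen, and Clec12a fell by 3.18 (SE 0.52, adjusted p = 0.000458) and Ceacam1 fell by 2.1 (SE 0.44, adjusted p = 0.00361). Clec4n (1.11), Clec7a (-0.94) and Pirb (-0.85) were the remaining calls, lost without at least 1 of spleen replicates 1 or 2 or 24-hour replicates 1, 2, 3 or 4 or 72-hour replicates 1, 2, 3 or 5 (highest adjusted p 0.0692 to 0.209). The lower count was 2 without spleen replicate 1 or 24-hour replicate 1. The integrin gene Itgb2 was not called (log2 difference -0.64, adjusted p = 0.068).

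Cytoskeletal regulators were called in 6 of 34, 2 higher and 4 lower. Marcks, which tethers actin to the membrane, had 518, 580.0 and 725 normalized CPM in the spleen and 1745, 1255, 1689 and 1708 at 24 hours. Its relative Marcksl1 had 44.1, 35.2 and 22.2 normalized CPM in the spleen and 248, 236, 226 and 298 at 24 hours. Both kept the groups apart, and Marcks rose by 1.4 (SE 0.23, adjusted p = 0.000542) and Marcksl1 rose by 2.9 (SE 0.57, adjusted p = 0.0022). Flna, the actin crosslinker filamin A, had 390.1, 410.3 and 266 normalized CPM in the spleen and 206, 161, 61.5 and 72.2 at 24 hours. Rhou, a small GTPase, had 53.8, 51.8 and 18.6 normalized CPM in the spleen and 0.631, 7.2, 4.95 and 5.84 at 24 hours. These fell below every spleen library, Flna by 1.5 (SE 0.32, adjusted p = 0.00411) and Rhou by 3.14 (SE 0.52, adjusted p = 0.000458). Tmsb10 and Tmsb4x, thymosins that bind monomeric actin, fell by 4.39 (SE 0.86, adjusted p = 0.0022) and 1.23 (SE 0.33, adjusted p = 0.0187), the latter lost without spleen replicates 1 or 2 or 24-hour replicate 4 (highest adjusted p 0.145). Without spleen replicate 3, 7 members were lower, against 3 without replicate 1 and 3 without replicate 2. Rab20, a phagosome GTPase overlapped by E230013L22Rik over 356 exon bases, had 11.1, 12 and 8.68 normalized CPM in the spleen and 103, 55.2, 67.9 and 86.8 at 24 hours. It rose by 2.88 (SE 0.40, adjusted p = 7.86e-05) and was the 1 of 5 called vesicle genes (3 higher and 2 lower of 34) to be called in all 12 fits.

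The remaining lists had few calls. Pim1, a kinase that supports survival and is overlapped by Gm26885 over 488 exon bases, had 58.5, 67.4 and 58.5 normalized CPM in the spleen and 254, 278, 269 and 398 at 24 hours. It rose by 2.28 (SE 0.33, adjusted p = 0.000134), while Mcl1, the survival factor on which neutrophils depend, averaged 365 ± 42.4 in the spleen and 531 ± 102 at 24 hours (log2 difference 0.54, adjusted p = 0.126). Thbs1, thrombospondin 1, overlapped by Gm29233 over 208 exon bases, had 3.71, 3.62 and 17.7 normalized CPM in the spleen and 80.1, 47.4, 72.8 and 132 at 24 hours. It rose by 3.26 (SE 0.79, adjusted p = 0.0102), lost without spleen replicates 1 or 2 (highest adjusted p 0.0639), and with Osm made up the 2 higher of 14 angiogenic and repair factors. Bcl2l1, an inhibitor of apoptosis (2.47), the interferon-stimulated genes Ifit1 (1.64) and Ifitm6 (-1.89, 33 tested), the cathepsin genes Ctsb, overlapped by Fdft1 (1.64), Ctsc (2.91) and Ctsz, overlapped by Nelfcd (0.83, 34 lysosome genes tested), and the stress gene Ddit4 were also called. Ddit4, the 1 called of 30 chaperone and stress genes, had 3 counts in the spleen and 26 at 24 hours (ratio 11.5, counting interval 3.53 to 59.5). All 7 lost their calls without at least 1 of spleen replicates 1, 2 or 3 or 24-hour replicates 1, 2, 3 or 4 or 72-hour replicates 1, 2 or 3 (highest adjusted p 0.069 to 0.192). Of 21 antigen presentation genes 0 were called by edgeR, 1 by DESeq2 and 0 by limma-voom, with 5 at an unadjusted p below 0.05, and the class I gene H2-D1 averaged 577 ± 82.4 in the spleen and 655 ± 73 at 24 hours (log2 difference 0.18, adjusted p = 0.598).

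Granule protein genes fell in 24-hour neutrophils, 9 of 23 tested (median difference -1.37). Ltf, lactoferrin of the secondary granules, had 1712, 1637 and 208 normalized CPM in the spleen and 5.05, 1.2, 0.707 and 1.46 at 24 hours. Ngp, neutrophilic granule protein, had 1895, 1891 and 339 normalized CPM in the spleen and 53, 45, 8.49 and 8.75 at 24 hours. Spleen replicate 3 lay far below the other spleen libraries at both genes, yet above 24 hours, and Ltf fell by 9.07 (SE 0.73, adjusted p = 5.9e-08) and Ngp fell by 5.56 (SE 0.69, adjusted p = 2.34e-05). Camp, the cathelicidin, had 169.8, 175 and 8.04 normalized CPM in the spleen and 0 in all 4 libraries at 24 hours. It was at least 219-fold lower (floor of 3 counts over the group, adjusted p = 5.99e-05). Chil3, a chitinase-like protein of young neutrophils and monocytes, had 205, 234 and 42.4 normalized CPM in the spleen and 8.83, 11.4, 2.12 and 0 at 24 hours. The groups were apart and Chil3 fell by 4.78 (SE 0.73, adjusted p = 0.000232).

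The other granule calls were smaller and the groups overlapped. Lyz2, lysozyme, had 818, 919 and 212 normalized CPM in the spleen and 237, 224, 107 and 86.1 at 24 hours. Anxa1, annexin A1, had 581, 629 and 152 normalized CPM in the spleen and 161, 153, 53 and 77.3 at 24 hours. At both genes spleen replicate 3 lay within the range of the 24-hour libraries, and Lyz2 fell by 1.99 (SE 0.39, adjusted p = 0.00197) and Anxa1 fell by 2.03 (SE 0.45, adjusted p = 0.00612). Lcn2 (-2.0), Cd177 (-2.01) and Itgb2l (-3.49) lost their calls without at least 1 of spleen replicates 1 or 2 or 24-hour replicates 2, 3 or 4 (highest adjusted p 0.0521 to 0.146). S100a8, a calprotectin subunit, had 1308, 1372 and 80.1 normalized CPM in the spleen and 127, 209, 67.2 and 59.8 at 24 hours. It fell by 2.98 (SE 0.58, adjusted p = 0.00191), and S100a9, the other subunit, by 2.71 (SE 0.50, adjusted p = 0.00132), with spleen replicate 3 again inside the 24-hour range. Without spleen replicate 3, 14 granule genes were lower, against 6 without replicate 1 and 7 without replicate 2. With spleen replicates 1 and 2 summed, 7 were lower. Mpo and Elane, of the primary granules, had no count in any of the 7 libraries. Prtn3, also of the primary granules, had 1, 3 and 8 counts in the spleen and 17, 0, 5 and 8 at 24 hours. Mmp9 and Mmp8, gelatinase and collagenase of later granules, were not called (log2 difference -0.80, adjusted p = 0.0571 and log2 difference -1.37, adjusted p = 0.0932).

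**Figure D4:**
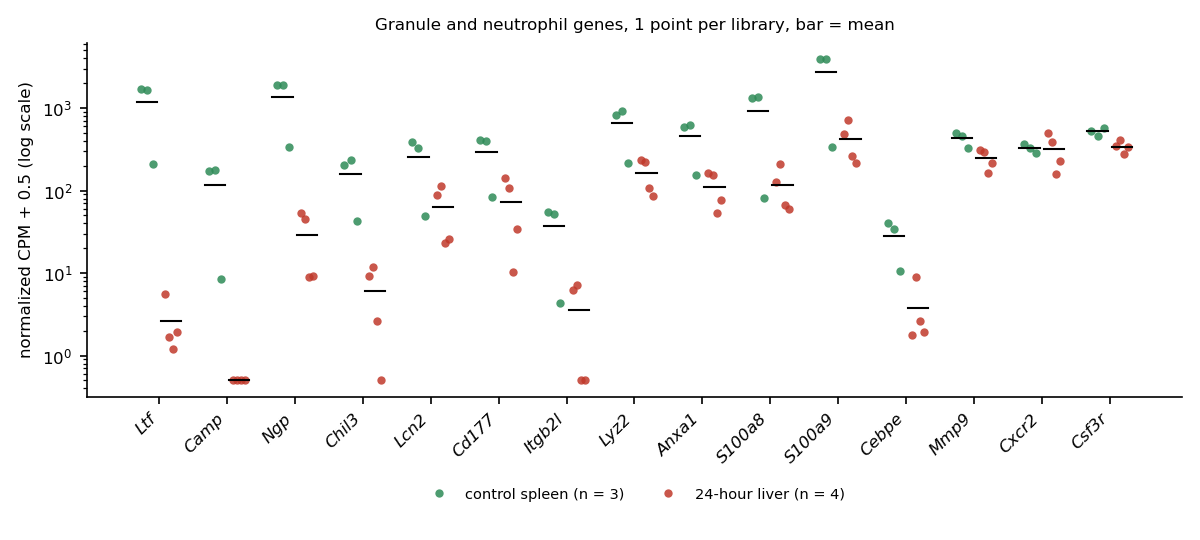
Normalized CPM plus 0.5 (vertical axis, log scale) of granule and neutrophil genes, 1 point per library (green, 3 control spleens, red, 4 livers at 24 hours) with the group mean as a bar. At the genes from Ltf to S100a9, 1 green point lies well below the other 2, while Mmp9, Cxcr2 and Csf3r, on the right, were not called and the groups overlap at Cxcr2.

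Markers of immature neutrophils and progenitors summed to values between 2627 and 4725 in the spleen libraries and between 898 and 1301 at 24 hours, lowest among the spleens in replicate 3, and 6 of 10 tested were lower. Most of the 24-hour sum was Mki67, a proliferation antigen, which had 674, 702 and 2008 normalized CPM in the spleen and 805, 938, 1134 and 1263 at 24 hours and was not called (adjusted p = 0.834). Mpo, Elane and Ms4a3 were at 0 in all 7 libraries, and Fcnb and Camp in all 4 at 24 hours. Cd63 had 8.35, 12.7 and 5.79 normalized CPM in the spleen and 12, 12.6, 22.6 and 19 at 24 hours. Prtn3 had 0.464, 1.09 and 2.57 in the spleen and 10.7, 0, 3.54 and 5.84 at 24 hours. These went the other way on average, with overlapping groups, and were not called. The part of immature cells in the fall of granule genes was not tested, and in bulk RNA fewer cells of a kind and less RNA per cell cannot be told apart.

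Among 28 myeloid lineage factors, 4 rose and 2 fell. Cebpb, a factor of activated myeloid cells, overlapped by Tmem189, had 132, 129 and 138 normalized CPM in the spleen and 950.5, 767, 1111 and 933 at 24 hours. The spleen values were nearly equal and Cebpb rose by 2.82 (SE 0.29, adjusted p = 1.98e-06). Bhlhe40, overlapped by 0610040F04Rik over 118 exon bases, rose by 2.92 (SE 0.74, adjusted p = 0.0133). Cebpe, the factor that drives secondary granule genes, had 39.4, 33.7 and 9.97 normalized CPM in the spleen and 1.26, 8.4, 2.12 and 1.46 at 24 hours. It fell by 3.0 (SE 0.77, adjusted p = 0.0148) with spleen replicate 3 the lowest of its group. Cebpe, Ets1 (-2.11), Ets2 (1.88) and Cebpd (0.65, overlapped by Spidr) lost their calls without at least 1 of spleen replicates 1 or 2 or 24-hour replicates 1, 2, 3 or 4 or 72-hour replicates 1, 2 or 3 (highest adjusted p 0.0544 to 0.214). Without spleen replicate 1, 2 factors were higher. Spi1, which encodes the lineage factor PU.1, was not called (log2 difference -0.37, adjusted p = 0.46). Of 19 cell cycle genes Aurkb (-2.19), Hmgb2 (-1.41) and Top2a were lower and Tubb5 (0.87) and Cdk4, overlapped by Tspan31 (1.7), higher, but none was called in all 12 fits, and the calls were lost without at least 1 of spleen replicates 1, 2 or 3 or 24-hour replicates 1, 2, 3 or 4 (highest adjusted p 0.052 to 0.136). Top2a had 41 counts in the spleen and 1 at 24 hours (ratio 0.0324, counting interval 0.000801 to 0.191).

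The other lower genes with the smallest adjusted p came from varied families. Tacc2, a centrosome and microtubule protein, had 25.5, 26.1 and 16.7 normalized CPM in the spleen and 0 in all 4 libraries at 24 hours. Zfp266, a zinc finger gene, had 7.89, 16.7 and 26 normalized CPM in the spleen and 0 in all 4 libraries at 24 hours. With no count at 24 hours, Tacc2 was at least 44.9-fold and Zfp266 at least 36.1-fold lower. Srd5a3, the polyprenol reductase needed for N-glycosylation, had 62.6, 55.8 and 44.7 normalized CPM in the spleen and 7.57, 10.8, 4.95 and 5.84 at 24 hours. Rcsd1, which binds the actin capping protein, had 108, 115 and 77.2 normalized CPM in the spleen and 36.6, 35.4, 37.5 and 32.8 at 24 hours. Both showed narrow ranges in each group, and Srd5a3 fell by 2.87 (SE 0.46, adjusted p = 0.000329) and Rcsd1 fell by 1.49 (SE 0.24, adjusted p = 0.000391). Plbd1, a phospholipase B-like protein, fell by 1.47 (SE 0.24, adjusted p = 0.000376). The lincRNA 4930463O16Rik had 186 counts in the spleen and 2 at 24 hours (ratio 0.0143, counting interval 0.00172 to 0.0524). The pseudogene I830127L07Rik had 235 and 3 (ratio 0.017, counting interval 0.00347 to 0.0502), and was called in each of the 9 of 12 fits in which it passed the filter.

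Immunoglobulin heavy chain segments were lower as well. Ighv1-74, a variable segment, had 38, 49.3 and 42.8 normalized CPM in the spleen and 2.52, 0.60, 3.54 and 2.19 at 24 hours. The groups were far apart and Ighv1-74 fell by 4.28 (SE 0.55, adjusted p = 3.78e-05). Of 12 variable segments tested 8 were lower and none higher, and segments so alike can share reads. Markers of B cells and plasma cells summed to values between 58 and 72.3 in the spleen libraries and between 40.3 and 73.8 at 24 hours, with ranges that overlapped. Of 4 tested 0 were called by edgeR, 1 by DESeq2 and 0 by limma-voom, with 2 at an unadjusted p below 0.05. Cd79a made up most of the sum in each library. Ms4a1, Jchain and Igkc had 0 or 1 count in each of the 7 libraries. Ighm, a heavy chain constant gene, had 9, 34 and 31 counts in the spleen and 5, 3, 6 and 0 at 24 hours. Bank1 had 6, 5 and 10 counts in the spleen and 2, 1, 1 and 0 at 24 hours. Cd22, overlapped by Gm29439 over 479 exon bases, averaged 3.74 ± 1.05 in the spleen and 12.4 ± 3.18 at 24 hours with the groups apart (log2 difference 1.71, adjusted p = 0.0599), and the part of B cells in the fall of the segments was not tested.

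Pairs of genes overlapping on opposite strands are given together. Tmem189, which shares 312 exon bases with Cebpb on chromosome 2, had 2411, 2239 and 2514 normalized CPM in the spleen and 17066, 14382, 19199.7 and 18950.2 at 24 hours. Gm26669, which shares 1672 with Zfp36l1 on chromosome 12, had 2484, 2366 and 2007 normalized CPM in the spleen and 20002, 17001, 13898 and 19327 at 24 hours. Tctex1d4, which shares 84 with Plk3 on chromosome 4, had 26.4, 22.5 and 25.1 normalized CPM in the spleen and 286, 413, 686 and 632 at 24 hours. Like their partners these rose, Tmem189 by 2.87 (SE 0.27, adjusted p = 7.6e-07), Gm26669 by 2.94 (SE 0.24, adjusted p = 5.9e-08) and Tctex1d4 by 4.35 (SE 0.34, adjusted p = 5.9e-08). Gm26728, opposite Cd9 over 218 bases on chromosome 6, averaged 275 ± 37.1 in the spleen and 1692 ± 320.1 at 24 hours and rose by 2.62 (SE 0.25, adjusted p = 8.48e-07), while Cd9 averaged 12 ± 3.85 in the spleen and 16.9 ± 2.78 at 24 hours (log2 difference 0.50, adjusted p = 0.571). Gm29233, E230013L22Rik, Gm12868 and Gm26885, opposite Thbs1, Rab20, Slc2a1 and Pim1, rose with them, by 4.61, 3.44, 2.44 and 2.81.

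Among lower genes with an overlap, Bricd5 and Mlst8, a subunit of the mTOR complexes, share 997 exon bases on chromosome 17. Bricd5 had 1047, 1008 and 271 normalized CPM in the spleen and 15.8, 19.8, 13.4 and 43.8 at 24 hours. It fell by 5.07 (SE 0.42, adjusted p = 8.14e-08) and Mlst8 fell by 3.86 (SE 0.85, adjusted p = 0.00541). Exosc9, a subunit of the RNA exosome, overlaps Ccna2, cyclin A2, by 510 bases and had 87.2, 79.4 and 12.2 normalized CPM in the spleen and 0, 0.60, 0 and 2.92 at 24 hours. Kctd18 overlaps Sgo2a, which protects centromeric cohesion, by 2455 bases and had 53.3, 49.7 and 18.3 normalized CPM in the spleen and 1.89, 0.60, 1.41 and 2.19 at 24 hours. In both genes spleen replicate 3 was the lowest spleen library and still above all 24-hour libraries, and Exosc9 fell by 6.05 (SE 0.75, adjusted p = 2.39e-05) and Kctd18 fell by 4.7 (SE 0.58, adjusted p = 2.39e-05). Ccna2 averaged 27.6 ± 10.8 in the spleen and 16.7 ± 9.83 at 24 hours (log2 difference -0.73, adjusted p = 0.266). Gtf2ird1, Glyctk and Golim4, opposite Gm42882, D030055H07Rik and Gm37256, were lower too (-4.8, -3.14 and -4.68). Over the 1792 pairs that were each other's largest overlap with both genes tested, at least 1 gene was called in 447 and both in 52, of which 49 moved in the same direction.

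**Figure D5:**
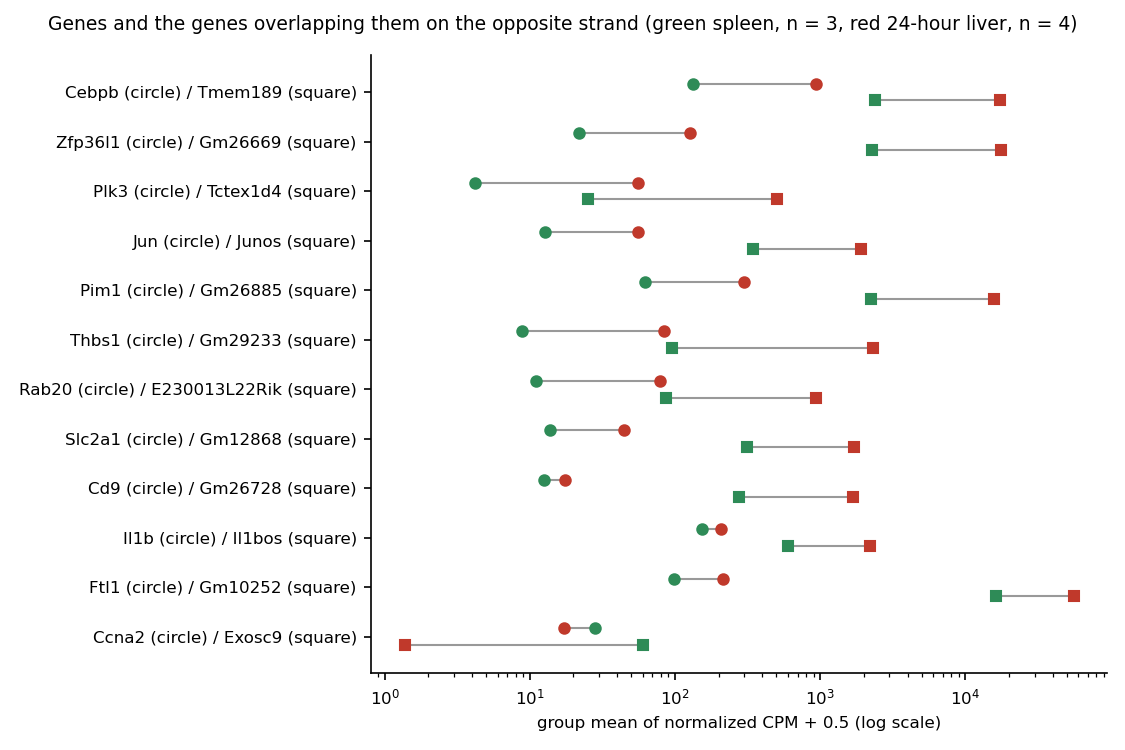
Group means of normalized CPM plus 0.5 (horizontal axis, log scale) for 12 genes (circles) and the genes overlapping them on the opposite strand (squares), green for control spleen (n = 3) and red for 24-hour liver (n = 4). In 11 of the pairs both symbols lie farther right at 24 hours, and in the pair of Ccna2 and Exosc9 both lie farther left.

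The 24-hour libraries were also tested directly against those at 72 hours, when 561 genes (4.49%) differed. Of the 668 genes higher than spleen at 24 hours, 191 differed from 72 hours, 186 of them higher at 24 hours. Of the 550 lower genes 91 differed, 90 of them lower at 24 hours. This contrast uses the same 24-hour libraries by which the genes were chosen, which favours these directions. Both contrasts with spleen share the same 3 spleen libraries, so their values are only set side by side. The median difference of the higher genes was 1.57 at 24 hours and 0.84 at 72 hours, and that of the lower genes -2.21 and -1.07, where the choice of genes at 24 hours favours the 24-hour value. Ptgs2, Fos and Btg2 were lower at 24 than at 72 hours (24 minus 72 hours, -2.19, -1.13 and -1.06), and Il12a and Cxcr5 higher (2.0 and 1.94). The sum of 282 differing genes fell to between 101 and 183 without spleen replicate 1 or 2, 24-hour replicate 1, 2 or 4 or 72-hour replicate 1 or 3.

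The cell type label was checked against markers. All 20 neutrophil markers were tested and summed to values between 2924 and 8919.7 in the spleen libraries and between 2013 and 4142 at 24 hours, with spleen replicate 3 the lowest spleen. S100a8, S100a9, Lcn2 and Cd177 were lower, and 14 others, among them Csf3r, Cxcr2, Mxd1 and Retnlg, were not called. The groups were still apart at Csf3r, Mmp9 and Msrb1, lower at 24 hours, and at Mxd1 and Il1r2, higher at 24 hours. Of the 20 markers, 12 had an unadjusted edgeR p below 0.05, 6 were called by DESeq2 and 3 by limma-voom. G0s2 rose by 2.85 (SE 0.58, adjusted p = 0.0028) and Trem1 by 1.19 (SE 0.34, adjusted p = 0.0305), the latter lost without spleen replicates 1 or 2 or 24-hour replicates 1, 2 or 4 (highest adjusted p 0.131). Ly6g, the antigen of the gate, had 37.1, 37.7 and 9.33 normalized CPM in the spleen and 15.1, 25.2, 7.07 and 2.19 at 24 hours and was not called (adjusted p = 0.263). Monocyte markers summed to values between 57.6 and 274 in the spleen libraries and between 5.84 and 24 at 24 hours. Chil3 and Ly6c2, which young neutrophils also express, made up most of the spleen sum and were both lower, while Fn1 was at 0 in all 7 libraries. Hepatocyte markers summed to values between 6.89 and 15.8 in the spleen libraries and between 18.4 and 21.4 at 24 hours, so the ranges were apart, although Alb had 0 to 2 counts per library. Of 26 listed 18 were at 0 in every 24-hour library, among them Apoa1, Ttr and Apob. Apoa2 gave 12.7 to 19.6 of the 24-hour sum and rose by 2.07 (SE 0.49, adjusted p = 0.00888), lost without spleen replicates 1 or 2 (highest adjusted p 0.0601). Gnmt was lower (-3.06), lost without spleen replicates 1, 2 or 3 or 24-hour replicates 1, 2, 3 or 4 (highest adjusted p 0.141).

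Summed markers of other cell types overlapped between the groups. Those of Kupffer cells and macrophages summed to values between 124 and 172 in the spleen libraries and between 148 and 229.8 at 24 hours, mostly Csf1r, which Hmgxb3 overlaps over 873 exon bases. Clec4f, Marco and C1qa were at 0 in all 7 libraries, while Cd163 averaged 1.25 ± 0.815 in the spleen and 7.14 ± 2.12 at 24 hours with the groups apart and was not called (adjusted p = 0.0746). Apoe had 27.4, 30.8 and 16.7 normalized CPM in the spleen and 3.78, 4.2, 18.4 and 10.9 at 24 hours. It went the other way, with overlapping groups, and was not called. C1qb and C1qc had 0 to 3 counts per spleen library and 0 at 24 hours. Dendritic cell markers summed to values between 68.7 and 201 in the spleen libraries and between 22.1 and 77.3 at 24 hours. Platelet markers summed to values between 152 and 269.8 in the spleen libraries and between 126 and 237 at 24 hours, mostly Gp1ba. The platelet genes Pf4 and Ppbp and the endothelial genes Cdh5 and Kdr were at 0 in all 7 libraries. Endothelial and stellate cell markers summed to between 89.5 and 246 in the spleen libraries and between 182 and 264 at 24 hours, mostly Stab1. All 4 ranges overlapped, and those of T and NK cells, of eosinophils, basophils and mast cells and of erythroid cells stayed below 20 normalized CPM in each of the 7 libraries compared. No member of these 7 lists was called by edgeR among 30 tested, 3 were called by DESeq2 and 2 by limma-voom, and 11 had an unadjusted p below 0.05.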

How the data were processed

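Stranded mRNA libraries of sorted neutrophils were sequenced, 3 from spleens at 0 h, 4 from livers at 24 h and 5 from livers at 72 h. The deposited table held raw counts per gene for each library, which the authors made by aligning reads and counting those on genes; the submitters' processing notes name STAR 2.7.9a and the GRCm38 genome, and the counter's strand setting is not given in the sources used here. Rows that name no gene were removed (96.8% to 97.3% of the uniquely aligned reads of the 7 libraries compared fell on no gene). Genes above 1 CPM in at least 3 of the 12 libraries were kept (12488), and library sizes were normalized by TMM (factors of 1.17 to 1.24 in the spleen and 0.740 to 0.860 at 24 h). With edgeR 4.0.16 (R 4.3.3), a quasi-likelihood model was fitted to all 12 libraries with group as the 1 factor, so that the 3 groups share 1 estimate of the spread, and p-values were adjusted by Benjamini-Hochberg over all tested genes. A call needed an adjusted p under 0.05 and a log2 difference of 0.5 or more in either direction. Counting intervals (95%, exact) and floors cover counting error only.

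The gene lists, markers and comparison were chosen with earlier results of these data known. Genes were named by 1 rule. It took the 12 called genes in each direction with the smallest adjusted p, groups apart and no opposite-strand exon overlap, the 6 in each direction that do overlap, the called members of each list and up to 4 well-counted members not called, and the markers. Partner genes and members of the lists that fall outside this rule were named after their values were seen. Overlaps came from the exons of the GRCm38 annotation, and promoter windows from RefSeq (GRCm38.p6). Alternatives were DESeq2 1.42.0, limma-voom 3.58.1, other scalings, filters and fold limits, a replicate term, and each library left out. The fit was also run on simulated data for 24 h against spleen (12488 genes, common dispersion 0.146). It called 2 of 50 genes changed 2-fold and 17 of 50 changed 4-fold. It called 46 of 50 changed 8-fold and 39 of 50 changed 16-fold, and 4 unchanged genes. Recovery of raised and of lowered genes at the same fold was not tested separately. Fewer genes were called at 16-fold than at 8-fold, and the reason was not tested. A few genes are not reported here.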

Additional observations from a re-analysis of the deposited data

Results flagged for a closer look

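Of 43 checks of single values for a library far from the others of its group, 5 were flagged among the 4 libraries at 24 hours, where chance flags about 1 in 20. Replicate 4 had 147308 reads that could not be given to 1 gene, against 14769 to 18962 in the other 24-hour libraries. The same library had 5.01% of its gene counts on CT010467.1, against 0.183% to 0.262% in the others. Gm16894 was highest in replicate 1 (926 normalized CPM), P2ry2 in replicate 2 (199 normalized CPM) and 4930463O16Rik in replicate 3 (1.41 normalized CPM).

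Of 140 genes named by the rule and called against spleen, 26 also differed between 24 and 72 hours in the direct edgeR test, with differences given here as 24 minus 72 hours. Both tests used the same 24-hour libraries, which favours differences in the same direction. Among genes higher than spleen, the values at 24 hours exceeded those at 72 hours for the antisense genes and pseudogene Gm12867 (0.92), 1700058P15Rik (0.83), Gm17907 (1.22), Gm26669 (1.47), Gm26728 (1.28) and Junos (0.88). The same held for Smox (0.81), Cdk4 (1.71), Il12a (2.0), Ctsc (2.05), Cxcr5 (1.94) and Marcks (0.72), and for the NF-kB genes Nkiras2 (1.24), Nfkb2 (0.99) and Nfkbib (1.36). The immediate early genes Fos (-1.13), Fosb (-2.19) and Btg2 (-1.06) and the cyclooxygenase gene Ptgs2 (-2.19) were called higher than spleen at 24 hours and were higher still at 72 hours. Genes lower than spleen at 24 hours had lower values at 24 than at 72 hours for Ighv1-74 (-2.32), Zfp266 (-6.0), Rcsd1 (-1.33), Slc2a3 (-0.86), Tmsb4x (-1.12), Clec12a (-2.01) and Clec7a (-1.48). Of the partner genes named outside the rule, E230013L22Rik (1.42), Gm12868 (1.62), Gm19719 (1.2) and Gm20319 (1.89) were also higher at 24 than at 72 hours.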

How the results depend on the processing

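Under every alternative run, no gene called in the fit used in the report and still tested changed its sign, and the count of 1218 calls stayed within 1.5 times under DESeq2 size factors (1230), upper-quartile scaling (1264, 63.2% of them higher against 54.8% with all choices as reported), the DESeq2 Wald test (1544), limma-voom (1200), no filter (1463 of 20019 tested), edgeR's own filter (1251), a fold limit of 1 (1061) and the 2 groups fitted alone (1153). Restricting the test to genes without an opposite-strand overlap gave 552 calls, 296 higher and 256 lower, 77 of which differed from 72 hours, by construction fewer because fewer genes were tested. Library sizes were then normalized on those genes alone. The balance was the reverse of that with all genes fitted, where 238 of these genes were higher and 340 lower. With spleen replicates 1 and 2 summed, an alternative chosen after seeing the data, 633 genes were called, 367 higher and 266 lower, 295 of them without an overlap and 162 different from 72 hours. The genes that differ from 72 hours (282) numbered 482 by the DESeq2 Wald test, 445 with no filter and 184 at a fold limit of 1, and the cause was not tested. Leaving out 1 library at a time gave 575 to 1320 calls, 336 to 737 higher, 239 to 594 lower, 257 to 632 without an overlap (578 with all libraries) and 101 to 354 that differ from 72 hours. The lowest came without spleen replicate 1, except for the comparison with 72 hours, lowest without 24-hour replicate 1. A fit with a replicate block called 1302 genes. Same-numbered spleen and 24-hour libraries deviated together only weakly (correlations of 0.095, 0.094 and 0.130), so the numbers are not taken as pairs. Spleen replicates 1 and 2 deviated with 24-hour replicates 1 and 2 (0.094 to 0.115), and spleen replicate 3 with 24-hour replicates 3 and 4 (0.130 and 0.157). The other pairs of spleen and 24-hour libraries lay between -0.153 and -0.083. The cause of this split was not tested. The values of named genes stayed on their side of the threshold in 2800 of 3177 recomputations and lost it in 377. At this depth genes of few counts, such as the spleen values of Cxcl2 or Ccl4, fix the direction better than the size.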
